A study of Mus musculus with 11 samples.

Results

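The tripartite motif (TRIM) genes of 4T1, a mouse mammary carcinoma line grown in culture, were described as all rows of the deposited expression table whose gene name starts with TRIM and a number. The rule found 67 members among 24197 rows. A member was counted as expressed where at least 1 group averaged 0.5 FPKM (fragments counted per gene, scaled to the gene's length and the library's size) or more, and 35 members were, against 32 that were below that level in every group. The last member inside the limit was Trim45 at 0.665 FPKM in its highest group, and the first outside it was Trim54 at 0.311 FPKM. Of all rows, 48.1% were expressed, against 52.2% of the TRIM rows.

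Cells of the 4HC+IFNAR1-Ab group (3 independent cultures, called the antibody group here) were exposed to 5 uM 4HC (4-hydroperoxy-cyclophosphamide, which releases the activated form of cyclophosphamide in culture) for 4 h and collected 68 h after the drug was washed off, with 10 ug/mL of a monoclonal antibody against IFNAR1, a subunit of the type I interferon receptor, present throughout. The 4HC group (3 cultures) had the same drug without the antibody. The IFNβ group (3 cultures) had 250 U/mL of recombinant interferon-beta for 4 h and was collected 2 h later. The sample labels, the deposited column header and the study's methods give this time, although the deposited protocol text gives 68 h. The control group (2 cultures) was collected at 72 h, and it is the reference of 3 of the 4 comparisons, so these share their control libraries. The study's methods describe these cultures as vehicle-treated, and the deposited column header calls them untreated. The IFNβ cultures differ from control in time of collection as well as treatment. By the study's methods, cells for IFNβ treatment were also seeded at a higher number per well than 4T1 cells for 4HC. In IFNβ over control, treatment, time and seeding cannot be told apart. All groups are 1 unmodified cell line, and no group received the antibody without 4HC.

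TRIM proteins are named for a RING finger, 1 or 2 B-boxes and a coiled coil, followed by a C-terminal domain that differs between subclasses. The RING finger makes most of them ubiquitin ligases. Many members with a C-terminal PRY-SPRY domain act in antiviral defence, either by binding viral proteins or by modifying the sensors of viral RNA and DNA, and type I interferon raises the transcription of several of them through a transcription factor complex that binds the interferon-stimulated response element (ISRE). Other members, such as Trim24, Trim28 and Trim33, carry a PHD finger and a bromodomain and act on chromatin.

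The ISRE core was looked up in the members' promoters because the members that responded most to IFNβ are read beside it. RefSeq promoter windows (GRCm38.p6, 250 bases before to 50 after the annotated start) were found for 51 of the 67 members, as 65 windows. The core was taken as GAAA, any 2 bases and GAAA again or, on the other strand, TTTC, any 2 bases and TTTC, and it was in 3.44% of all 32851 windows and in 9 of the 65 TRIM windows, those of Trim2, Trim12a, Trim12c, Trim21, Trim26, Trim30a (both of its windows), Trim30d and Trim34a. The stretches around it in 7 of these windows follow, 5′ to 3′ on the gene's strand, with the match in capitals. The window of Trim12a, a gene listed at 0 in every group, and the second window of Trim30a are not shown. Where the match lies past the start site 30 bases are shown.
Trim30a, chr7:104465194-104465269, minus strand, match starting at -36: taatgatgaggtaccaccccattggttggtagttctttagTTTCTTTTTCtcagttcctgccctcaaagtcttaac
Trim30d, chr7:104507851-104507930, minus strand, match starting at -41: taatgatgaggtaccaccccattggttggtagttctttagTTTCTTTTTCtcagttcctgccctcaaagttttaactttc
Trim12c, chr7:104353350-104353418, minus strand, match starting at -29: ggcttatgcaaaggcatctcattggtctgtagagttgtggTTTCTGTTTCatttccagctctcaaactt
Trim26, chr17:36836946-36837025, plus strand, matches starting at -160 and -154: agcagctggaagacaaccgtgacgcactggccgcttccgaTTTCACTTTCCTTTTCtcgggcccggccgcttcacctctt
Trim34a, chr7:104244457-104244486, plus strand, match starting at 11: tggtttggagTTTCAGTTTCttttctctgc
Trim21, chr7:102565447-102565476, minus strand, matches starting at 14 and 20: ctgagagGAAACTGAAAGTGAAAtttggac
Trim2, chr3:84212791-84212820, minus strand, match starting at 29: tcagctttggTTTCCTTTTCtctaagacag

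The windows of Trim30d and Trim30a were identical at 276 of 295 bases when aligned on the match. Trim21 and Trim26 each held 2 overlapping matches. The gamma-activated site TTCNNNGAA, which is its own reverse complement, was in 8.30% of all windows and in 6 of the 65 TRIM windows, of Trim15, Trim31, Trim38, Trim45 and Trim46. The promoters of Trim14, Trim16 and Trim65 were not analysed here. A match describes these letters only and was not tested as a binding site.

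The table gives 1 value per gene and group, the authors' mean FPKM. The values of single libraries used below were recovered from these means, as the whole numbers of reads that return the printed value to its last decimal, and are given from the deepest to the shallowest library of each group. The recovery gave 1 solution for 34 of the 35 expressed members, the exception being Trim28, and the library sizes lay between 32094187 and 49339757 reads. Members are called past the fold where the ratio of group means exceeded 2, with 0.1 FPKM added to both, and rose or fell only where limma on the recovered libraries gave an adjusted p below 0.05 over all 11107 genes tested. Log2 differences and their standard errors (SE) are from that fit, on the log2(FPKM + 0.1) scale, which understates the change of genes of low level.

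Of 6 epithelial markers, Krt8, Krt18, Cdh1 and Epcam were above 10 FPKM in every group, and Krt5 was at or near 0. Krt18 averaged 218.3 FPKM in the antibody group, 206.4 FPKM with 4HC, 100.5 FPKM with IFNβ and 88.1 FPKM in control. Krt14, a basal keratin, averaged 10.2 FPKM in the antibody group, 10.1 FPKM with 4HC, 19.7 FPKM with IFNβ and 1.61 FPKM in control, and rose in all 3 comparisons with control (limma adjusted p at most 3.95e-06). Of the 5 leukocyte markers with a row, Cd68 alone was above 0.5 FPKM, and the list summed to 7.87 FPKM in the antibody group, 8.53 FPKM with 4HC, 1.28 FPKM with IFNβ and 2.52 FPKM in control. Ptprc, the pan-leukocyte marker, stayed below 0.01 FPKM in every group. Ribosomal precursor RNA (Rn45s) averaged 284.3 FPKM in the antibody group, 299.9 FPKM with 4HC, 338.4 FPKM with IFNβ and 1038 FPKM in control. The Krt14, Rn45s and Cd68 levels moved with treatment, and their part in the TRIM results was not tested.

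Trim28 (KAP1), the corepressor that KRAB zinc finger proteins recruit to silence chromatin, was the most abundant member in every group. It averaged 54.0 FPKM in the antibody group, 56.1 FPKM with 4HC, 102.2 FPKM with IFNβ and 54.5 FPKM in control, where it made up 23.7% of the summed FPKM of all members. Its ratio of means with IFNβ was 1.88, below the 2-fold limit, and no library values are at hand to set against it. The next by mean level were Trim59, Trim25, Trim35, Trim8, Trim44, Trim27 and Trim26, at 22.0 to 11.6 FPKM over the 4 groups. Members above 1 FPKM in all groups numbered 25.

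**Figure D1:**
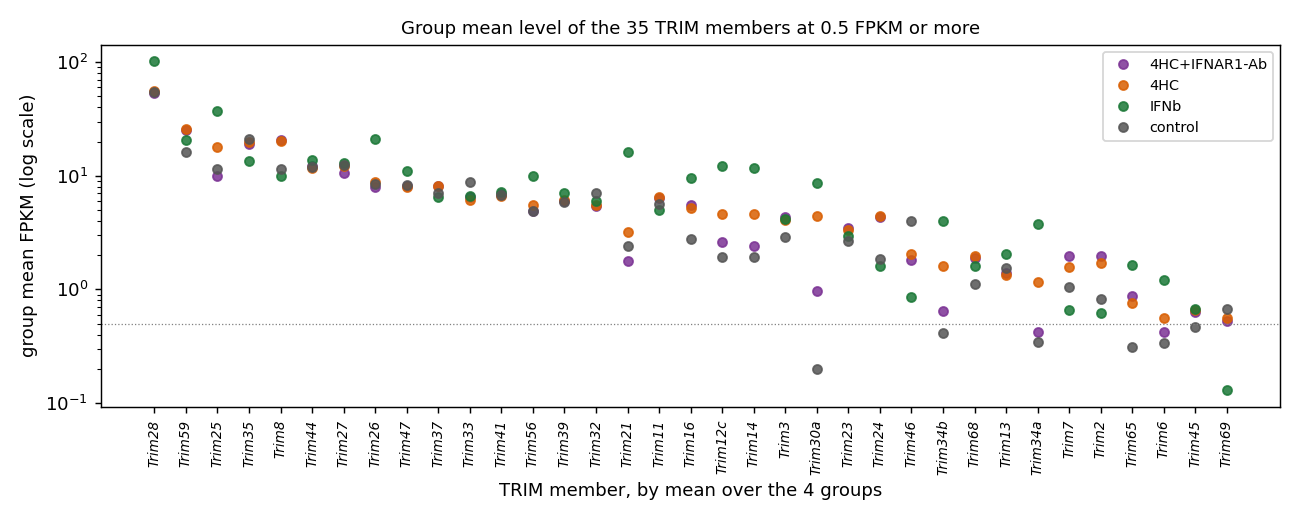
Group mean FPKM (log axis) of the 35 expressed TRIM members, ordered by their mean over the 4 groups, with 1 point per group and the 0.5 FPKM limit dotted (IFNb stands for IFNβ). Trim28 is highest in every group, and the groups spread most at Trim30a, between 0.200 FPKM in control and 8.66 FPKM with IFNβ.

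With IFNβ, 12 members were past 2-fold higher and 2 lower than in control, and the same 12 and 2 members passed the test. Among all genes the share higher was 7.61% by group means and 7.42% with the test as well, and the share lower was 4.06% and 3.58%. The median log2 ratio of the 35 expressed members was 0.39, against 0.03 over all 11634 expressed genes. The 12 members past 2-fold higher were Trim30a, Trim34a, Trim34b, Trim21, Trim12c, Trim14, Trim65, Trim16, Trim25, Trim6, Trim26 and Trim56. The 2 past 2-fold lower were Trim46 and Trim69. Without a limit on the fold, 15 members rose and 5 fell, where 26.4% of all genes rose and 19.2% fell.

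With 4HC, 7 members were past 2-fold higher and 0 lower, and the same 7 passed the test (Trim30a, Trim34b, Trim34a, Trim12c, Trim14, Trim24 and Trim65). At this fold, 14.5% of all genes were higher by group means and 14.6% with the test, and 2.56% and 2.04% were lower. Without a limit on the fold, 15 members rose and 3 fell, where 35.0% of all genes rose and 18.2% fell, and limma gave 3 members lower at an unadjusted p below 0.05. The median log2 ratio of the members was 0.41, against 0.14 over all genes.

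With 4HC and the antibody, 4 members were past 2-fold higher than in control and passed the test (Trim30a, Trim65, Trim24 and Trim2), and 1 was lower (Trim46). The shares among all genes were 14.8% and 15.0% higher and 3.52% and 2.94% lower. Without a limit on the fold, 13 members rose and 4 fell, where 34.9% of all genes rose and 20.9% fell. Set directly against 4HC alone, 3 members were past 2-fold lower with the antibody and passed the test (Trim30a, Trim34a and Trim34b), where 0.988% of all genes were lower by group means and 0.657% with the test. Members past 2-fold higher numbered 0 (0.430% of all genes by group means and 0.0180% with the test), limma gave 0 members higher at an unadjusted p below 0.05, and 4 further members fell by less than 2-fold (Trim14, Trim25, Trim21 and Trim12c). Across the 34 members, 7 fell and 27 did not pass in this comparison, where 0.909% of all genes fell and 0.0270% rose without a limit on the fold.

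**Figure D2:**
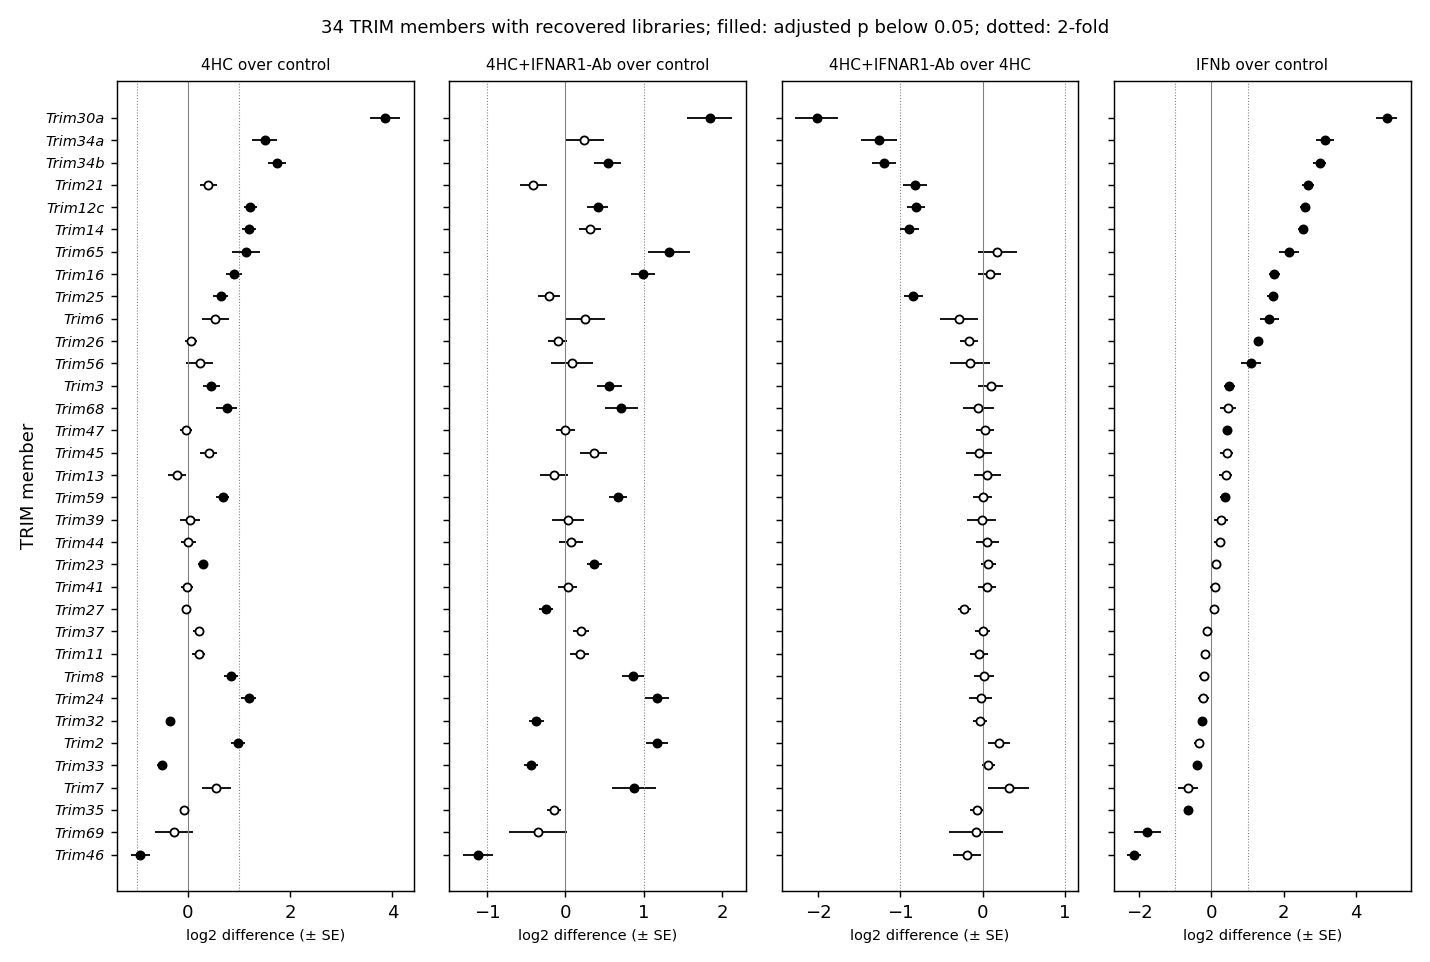
Log2 difference (± SE) of 34 TRIM members in the 4 comparisons, ordered by IFNβ over control, with filled points at an adjusted p below 0.05 and dotted lines at 2-fold. The 7 members filled in 4HC+IFNAR1-Ab over 4HC are all below 0 and all are filled above 0 in IFNβ over control, while Trim24, Trim2, Trim8, Trim68 and Trim23 are filled above 0 in both comparisons of 4HC cultures with control only.

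Trim30a, a mouse member known for dampening Toll-like receptor signalling to NF-kB, had the largest log2 difference of the 34 tested members in each of the 4 comparisons. It lies on chromosome 7 (mm9, 111557540 to 111613707, the whole gene span). It had 0.883, 0.898 and 1.14 FPKM in the antibody group, 3.09, 3.73 and 6.47 FPKM with 4HC, 10.0, 9.85 and 6.11 FPKM with IFNβ, and 0.171 and 0.229 FPKM in control. The antibody libraries lay below all 4HC libraries and above both control libraries. The log2 difference of 4HC from control was 3.86 ± 0.29 (SE; limma adjusted p = 2.21e-06), that of IFNβ from control 4.84 ± 0.29 (limma adjusted p = 5.05e-07), that of the antibody group from 4HC -2.02 ± 0.26 (limma adjusted p = 0.00213) and that of the antibody group from control 1.84 ± 0.29 (limma adjusted p = 0.000327). With the receptor antibody present Trim30a was still above control, as were Trim34b and Trim12c by smaller differences.

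Trim34a and Trim34b are a pair of closely related mouse genes akin to human TRIM34, in the same chromosome 7 cluster. Trim34a (mm9, 111392971 to 111410750) had 0.533, 0.313 and 0.425 FPKM in the antibody group, 0.887, 1.13 and 1.46 FPKM with 4HC, 3.75, 4.01 and 3.52 FPKM with IFNβ, and 0.423 and 0.265 FPKM in control. Its antibody and control libraries overlapped, with a log2 difference of 0.24 ± 0.25 (limma adjusted p = 0.427). Trim34b (mm9, 111477985 to 111485131) had 0.754, 0.543 and 0.647 FPKM in the antibody group, 1.34, 1.68 and 1.85 FPKM with 4HC, 4.13, 3.85 and 3.93 FPKM with IFNβ, and 0.437 and 0.387 FPKM in control. Trim34b libraries did not overlap between any of the 4 pairs of groups compared. Its antibody group was above control by a log2 difference of 0.54 ± 0.17 (limma adjusted p = 0.0205), a call lost without the shallower control library or the deepest antibody library (limma adjusted p = 0.0979 and 0.0674) and with 1 FPKM added (limma adjusted p = 0.0803). The antibody group was below 4HC by a log2 difference of -1.26 ± 0.22 for Trim34a (limma adjusted p = 0.0154) and -1.20 ± 0.15 for Trim34b (limma adjusted p = 0.00196). With 1 FPKM added in place of 0.1, neither gene was past 2-fold lower in this comparison. The Trim34a call was lost when any 1 of 4 libraries was left out (the 2 shallower ones of 4HC and the 2 shallower ones of the antibody group), with log2 differences of -1.28 to -1.10 and limma adjusted p values of 0.0588 to 0.0831. How reads shared by the pair were assigned is not given in the sources used here, so the split between them is uncertain.

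Trim12c, a relative of the retrovirus restriction factor TRIM5, lies next to Trim34b in the same cluster (mm9, 111487268 to 111501863). It had 2.45, 2.84 and 2.52 FPKM in the antibody group, 4.28, 4.33 and 5.32 FPKM with 4HC, 12.1, 13.0 and 11.1 FPKM with IFNβ, and 1.81 and 2.06 FPKM in control. The 4 groups did not overlap, in the order IFNβ, 4HC, antibody, control. The log2 difference of the antibody group from 4HC was -0.81 ± 0.11 (limma adjusted p = 0.00341). That from control was 0.41 ± 0.13 (limma adjusted p = 0.0165), a call lost without the deeper control library or the second deepest antibody library (limma adjusted p = 0.0991 and 0.0597). Its near-identical neighbour Trim12a was listed at 0 in every group, so the assignment of reads between the 2 genes is uncertain. Trim6, the remaining expressed member of the cluster and a ligase that acts in interferon receptor signalling, rose with IFNβ only among the 4 comparisons, to 1.11, 1.23 and 1.32 FPKM, against 0.329 and 0.342 FPKM in control.

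Trim14, which lacks the RING finger and acts as an adaptor at the mitochondrial sensor protein MAVS, had levels near those of Trim12c in each group, with 2.08, 2.61 and 2.6 FPKM in the antibody group, 4.08, 4.66 and 5.05 FPKM with 4HC, 12.9, 11.4 and 10.6 FPKM with IFNβ, and 1.85 and 2.01 FPKM in control. The antibody group was below 4HC (log2 difference -0.89 ± 0.12, limma adjusted p = 0.00289), and its difference from control was 0.31 ± 0.14 (limma adjusted p = 0.0732).

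Trim21, the cytosolic receptor for antibody-coated particles, rose with IFNβ (log2 difference 2.67 ± 0.17, limma adjusted p = 8.05e-07). It had 1.75, 1.73 and 1.85 FPKM in the antibody group, 2.81, 3.29 and 3.58 FPKM with 4HC, 12.3, 19.4 and 16.6 FPKM with IFNβ, and 2.24 and 2.57 FPKM in control. All 4HC libraries were above control and all antibody libraries below it, and neither difference passed the test (log2 differences 0.40 ± 0.17 and -0.41 ± 0.17, limma adjusted p = 0.0688 and 0.0613). The antibody group was below 4HC (log2 difference -0.82 ± 0.15, limma adjusted p = 0.0281), but without any 1 of 5 of these 6 libraries, the deepest of 4HC being the exception, limma gave an adjusted p of 0.0842 to 0.154, and with 1 FPKM added in place of 0.1 it gave 0.0879. Trim25, the ligase known for its part in activating the RNA sensor RIG-I, had 9.63, 9.60 and 10.6 FPKM in the antibody group, 16.3, 16.7 and 21.1 FPKM with 4HC, 31.6, 41.7 and 39.1 FPKM with IFNβ, and 11.1 and 11.9 FPKM in control. It rose with 4HC by less than 2-fold (log2 difference 0.64 ± 0.14, limma adjusted p = 0.00228) and was lower with the antibody than with 4HC alone (-0.84 ± 0.12, limma adjusted p = 0.00415).

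Trim26 and Trim56, ligases that act in the sensing of viral nucleic acid, rose with IFNβ and did not pass the test in the 3 comparisons that involve 4HC. Trim26 (mm9 chromosome 17, 36974091 to 36996343) had 18.4, 23.4 and 21.5 FPKM with IFNβ and 9.0 and 7.99 FPKM in control, and its 4HC libraries (8.23, 8.35 and 10.1 FPKM) overlapped the control. Trim56 had 9.79, 9.36 and 10.6 FPKM with IFNβ and 6.61 and 3.15 FPKM in control. The 2 control libraries of Trim56 differed by more than 2-fold, and without the shallower one its call with IFNβ was lost (log2 difference 0.58, limma adjusted p = 0.0633, against 1.10 with both).

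**Figure D3:**
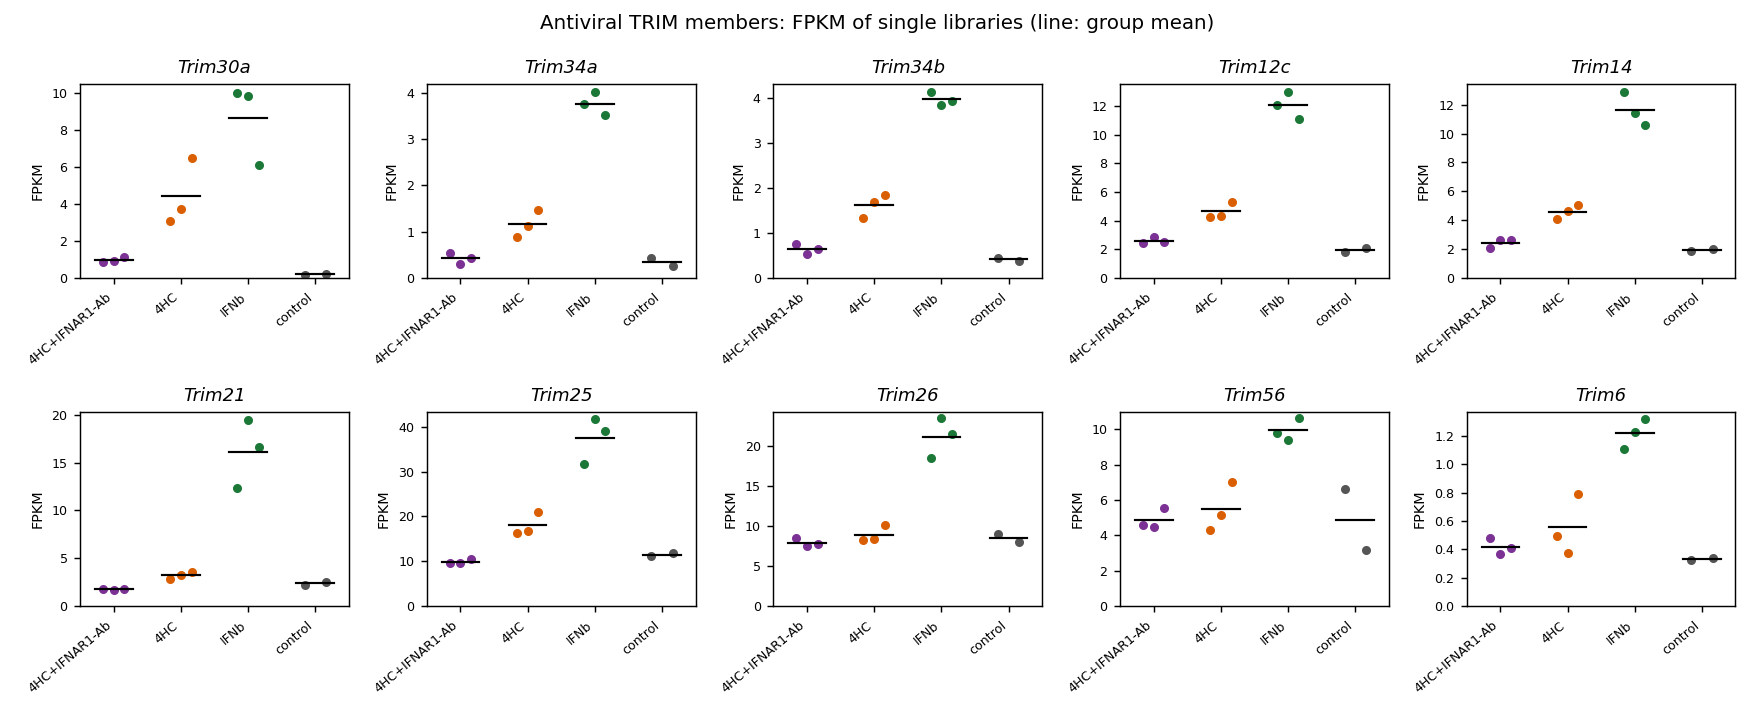
FPKM of single libraries (points, linear axes from 0) and the group mean (line) for 10 antiviral TRIM members in the antibody, 4HC, IFNβ (IFNb) and control groups. The 10 are the tested members of the antiviral list that rose past 2-fold with IFNβ. The remaining tested member of that list, Trim69, is left out, and its IFNβ libraries were all below both control libraries. In each of the 10 members every IFNβ library is above both control libraries, which is not independent of how they were picked. In the first 5, with Trim21 and Trim25, every antibody library is below every 4HC library. Shares of all genes without such overlap were not computed.

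A list of 20 antiviral TRIM genes found 15 rows, of which 11 were expressed and tested. The list was chosen with earlier results of these data known, so its counts are not independent of them. Trim65, a ligase of the RNA sensor MDA5, is not on this list. With IFNβ, 10 of the 11 rose past 2-fold and Trim69 fell past 2-fold, where 7.42% of all genes rose and 3.58% fell past 2-fold. With 4HC, 5 were past 2-fold higher (14.6% of all genes) and with the antibody 1 was (15.0% of all genes), both against control. Against 4HC alone, 7 of the 11 fell with the antibody (0.909% of all genes), 3 of them past 2-fold (0.657% of all genes). The median log2 difference was -0.82. Trim69, a ligase reported to restrict some RNA viruses, had 0.184, 0.122 and 0.0820 FPKM with IFNβ and 0.795 and 0.558 FPKM in control, with a log2 difference of -1.77 ± 0.37 (limma adjusted p = 0.00271). These levels rest on 16, 9 and 5 reads with IFNβ and 50 and 33 reads in control. Its 2-fold call was lost with 1 FPKM added in place of 0.1, and a 1 FPKM limit left the gene out.

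Of the members that rose past 2-fold with 4HC, with or without the antibody, Trim24, Trim2 and Trim65 had log2 differences of the antibody group from 4HC of -0.02, 0.20 and 0.18 that did not pass the test. Trim24, a chromatin reader and nuclear receptor cofactor, had 4.83, 4.44 and 3.67 FPKM in the antibody group, 4.07, 3.93 and 5.13 FPKM with 4HC, 1.73, 1.45 and 1.58 FPKM with IFNβ, and 1.95 and 1.76 FPKM in control. Its log2 difference from control was 1.17 ± 0.15 in the antibody group (limma adjusted p = 8.43e-05) and 1.19 ± 0.15 with 4HC (limma adjusted p = 8.03e-05), and the antibody group differed from 4HC by -0.02 ± 0.14. Trim2, a neuronal ubiquitin ligase of the NHL subclass, had 1.98, 1.88 and 2.06 FPKM in the antibody group, 1.74, 1.67 and 1.72 FPKM with 4HC, 0.721, 0.587 and 0.560 FPKM with IFNβ, and 0.825 and 0.815 FPKM in control. The IFNβ libraries of both members were below their control libraries without passing the test (limma adjusted p = 0.273 and 0.0655).

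Trim65, a ligase of the RNA sensor MDA5, and Trim16, which lacks a RING finger, rose with 4HC, with 4HC and the antibody, and with IFNβ. Trim65 had 0.775, 0.820 and 1.04 FPKM in the antibody group, 0.725, 0.703 and 0.848 FPKM with 4HC, 1.55, 1.35 and 1.99 FPKM with IFNβ, and 0.431 and 0.185 FPKM in control. Without the shallower control library its log2 differences from control were 0.87 in the antibody group and 0.69 with 4HC, no longer past 2-fold, against 1.32 and 1.14 with both. Trim16 had 5.87, 5.51 and 5.32 FPKM in the antibody group, 5.31, 5.02 and 5.31 FPKM with 4HC, 7.62, 9.60 and 11.3 FPKM with IFNβ, and 3.09 and 2.44 FPKM in control. Its log2 differences from control were 0.99 ± 0.15 in the antibody group, 0.90 ± 0.15 with 4HC and 1.74 ± 0.15 with IFNβ (limma adjusted p = 0.000245, 0.000511 and 8.49e-06).

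Trim8 and Trim59 were abundant members that rose with 4HC by less than 2-fold. Trim8, a ligase known to act in cytokine signalling, had 20.1, 20.7 and 21.1 FPKM in the antibody group, 20.5, 19.2 and 21.5 FPKM with 4HC, 11.5, 9.81 and 8.32 FPKM with IFNβ, and 9.98 and 12.9 FPKM in control. Trim59, a membrane-anchored member, had 26.4, 26.3 and 23.9 FPKM in the antibody group, 25, 25.6 and 26.1 FPKM with 4HC, 20.3, 22.0 and 19.8 FPKM with IFNβ, and 13.6 and 18.8 FPKM in control. In both genes the antibody and 4HC libraries overlapped each other and lay above control.

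Trim46, which organises axonal microtubules in neurons, fell in all 3 comparisons with control. It had 2.12, 1.59 and 1.68 FPKM in the antibody group, 1.92, 2.18 and 2.08 FPKM with 4HC, 1.09, 0.684 and 0.787 FPKM with IFNβ, and 4.24 and 3.79 FPKM in control. The log2 differences were -1.12 ± 0.19 in the antibody group (limma adjusted p = 0.000418), -0.93 ± 0.19 with 4HC (limma adjusted p = 0.00158) and -2.13 ± 0.19 with IFNβ (limma adjusted p = 8.58e-06). Trim33, a chromatin member that acts on SMAD signalling, and Trim32, an NHL member mutated in a muscular dystrophy, also fell in these 3 comparisons, all by less than 2-fold. The Trim32 difference with IFNβ rested on a narrow margin (log2 difference -0.25 ± 0.09, limma adjusted p = 0.0355), and without the shallower control library it was -0.16 (limma adjusted p = 0.200). Trim33 had 6.29, 6.41 and 6.66 FPKM in the antibody group, 5.61, 6.46 and 6.33 FPKM with 4HC, 6.79, 6.38 and 6.55 FPKM with IFNβ, and 9.15 and 8.41 FPKM in control. Trim35 fell with IFNβ (log2 difference -0.65 ± 0.09, limma adjusted p = 0.000201) and Trim37 did not pass in any comparison, with group means between 6.53 and 8.19 FPKM.

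**Figure D4:**
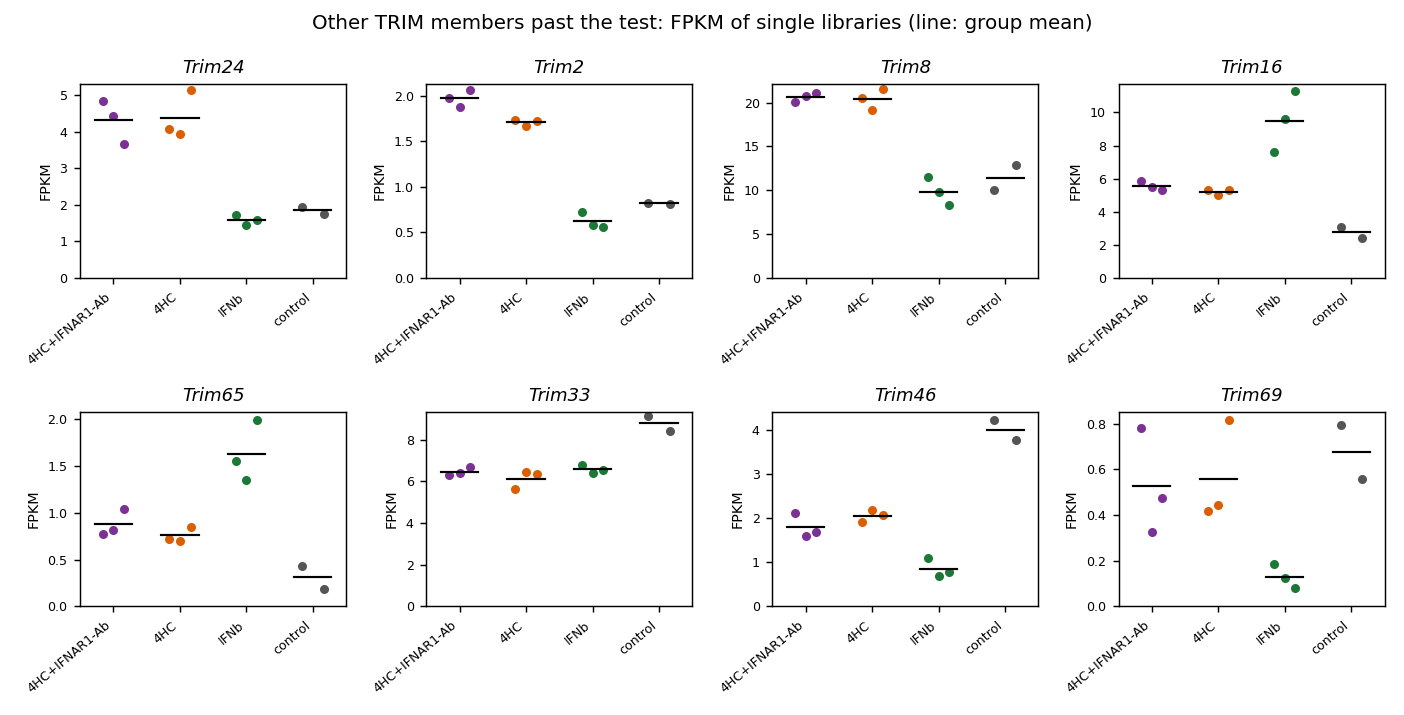
FPKM of single libraries (points, linear axes from 0) and the group mean (line) for 8 further TRIM members in the antibody, 4HC, IFNβ (IFNb) and control groups. Trim24, Trim2 and Trim8 are above control in the antibody and 4HC groups and not with IFNβ, and Trim46 is highest in control.

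The subclass lists count Trim14 and Trim16 by their lack of a RING finger, whatever their C-terminal domain. Counts of the PRY-SPRY list are therefore not counts of all members with that domain. On this list were 9 of the 12 members past 2-fold higher with IFNβ. Of its 18 tested members, these 9 rose past 2-fold with IFNβ and 1 fell past 2-fold (7.42% and 3.58% of all genes). With 4HC, 5 of the 18 rose past 2-fold (14.6% of all genes). Against 4HC alone, 6 of the 18 fell with the antibody (0.909% of all genes), and the other member that fell was Trim14. Of the 3 tested members without a RING finger, 2 rose past 2-fold with IFNβ (Trim14 and Trim16). Over all 4 comparisons, 16 members were past 2-fold at least once, and 7 members passed the test in none. The shares of all genes over the 4 comparisons together were not computed, so these counts cannot be set against them.

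Among the 26 tested members with a RefSeq promoter, 6 had an ISRE core and 20 had none in these windows. With IFNβ, 5 of the 6 rose past 2-fold (Trim30a, Trim34a, Trim21, Trim12c and Trim26), and the other was Trim2 at a log2 difference of -0.35. Of the 20 without it, 4 rose past 2-fold, Trim34b, Trim25, Trim6 and Trim56, and 2 fell past 2-fold. Among all genes tested, 7.42% rose and 3.58% fell past 2-fold with IFNβ. The median log2 difference with IFNβ was 2.62 in the 6 and 0.24 in the 20. Against 4HC alone, the antibody gave a median of -0.82 in the 6 and -0.02 in the 20. The members of the chromosome 7 cluster share sequence, so the windows are not independent, and no test was made.

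The 32 members that were not expressed included 8 listed at 0 in every group (Trim12a, Trim30b, Trim30e-ps1, Trim31, Trim42, Trim52, Trim61 and Trim75). For the other 24, whole reads were summed over the libraries of a group, and intervals cover counting error only. Trim30d, whose promoter is nearly that of Trim30a, had 27 reads in the antibody group, 61 with 4HC, 95 with IFNβ and 1 in control. Its rate per library read with the antibody was 0.407 of that with 4HC (95% Clopper-Pearson interval 0.249 to 0.651), and the IFNβ ratio to control was 52.3 (9.17 to 2089). Reads from Trim30a and Trim30d may be split between the 2 genes. Trim54, a titin-associated ligase of striated muscle, had 56 reads in the antibody group, 51 with 4HC, 4 with IFNβ and 0 in the 2 control libraries. Against a floor of 3 reads over the control group its observed rate was 11-fold higher in the antibody group and 10.9-fold higher with 4HC. These 2 ratios carry no interval for the counting error of the Trim54 reads. The summed level of 4 striated muscle markers was at most 0.181 FPKM in any group. Trim66 had 51, 44, 16 and 1 reads in the antibody, 4HC, IFNβ and control groups. Trim63, the muscle atrophy ligase, had 1 read in the antibody group and 0 in the others, and Trim71, a stem cell RNA-binding member, had 68, 59, 137 and 21 reads in the antibody, 4HC, IFNβ and control groups.

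The genes around the TRIM response were read from a pair of lists. Among all genes tested, 7.42% rose past 2-fold with IFNβ and 14.6% with 4HC, and 0.657% fell past 2-fold with the antibody against 4HC alone. Of 10 genes of the type I interferon receptor and its signalling, 5 were past 2-fold higher with IFNβ (Irf7, Usp18, Stat2, Irf9 and Socs1) and the same number with 4HC, and 4 fell past 2-fold when the antibody was added to 4HC. In the antibody group, 3 of the 10 were still past 2-fold higher than in control (Irf7, Usp18 and Stat2), where 15.0% of all genes were. Irf9, the DNA-binding subunit of the factor that reads the ISRE, averaged 3.39 FPKM in the antibody group, 10.9 FPKM with 4HC, 18.5 FPKM with IFNβ and 3.92 FPKM in control. The antibody group of Irf9 did not pass against control (limma adjusted p = 0.256). Ifnar1, whose product the antibody binds, averaged 5.51, 4.91, 3.89 and 4.46 FPKM in the same order and passed the test in none of the 4 comparisons. Of 11 genes of RNA and DNA sensing, 4 rose past 2-fold with IFNβ (Isg15, Dhx58, Ifih1 and Ddx58) and these 4 fell past 2-fold with the antibody against 4HC alone. In the antibody group, 2 of the 11 were past 2-fold higher than in control (Isg15 and Ikbke), and Dhx58 and Ifih1 rose by less than 2-fold. Ddx58, which encodes the RIG-I sensor that Trim25 modifies, averaged 5.93 FPKM in the antibody group, 15.2 FPKM with 4HC, 29.5 FPKM with IFNβ and 5.35 FPKM in control. The antibody group of Ddx58 did not pass against control (limma adjusted p = 0.462). Ikbke, a kinase of the same pathway, averaged 9.20 FPKM in the antibody group, 8.93 FPKM with 4HC, 3.15 FPKM with IFNβ and 1.86 FPKM in control, a log2 difference of the antibody group from 4HC of 0.04 (limma adjusted p = 1).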

How the data were processed

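Poly(A)-selected, strand-specific libraries of 11 cultures were measured. Per the submitters' processing notes, TopHat2, featureCounts and edgeR were used by the authors, on mm9. The deposited table holds the authors' mean FPKM of each group, with no columns of single libraries. It also holds the authors' own ratios, fold changes and p-values, which were not used.

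The planned measure was the ratio of group means against 2-fold, with no test, over genes at 0.5 FPKM or more in a group and with 0.1 FPKM added. After the table had been seen, single libraries were recovered as an addition. Library sizes came from single-exon olfactory receptor genes of 850 to 1100 bases, and gene length and reads were the whole numbers that return the value printed to 11 decimals. Which culture a recovered library is cannot be told. One solution was found for 11109 of 11634 expressed genes (95.5%), and the others, Trim28 among them, were left out of the test, also 2 rows that share a name. Above 1000 reads a library, each library was taken to lie within 2-fold of its group mean, and the limits of the search were set after seeing that Trim25 had no solution under narrower ones. Recovered lengths had a median ratio of 0.985 (quartiles 0.865 and 1.00) to GENCODE M21 exon lengths over 10659 genes. limma 3.58.1 (R 4.3.3) was fitted with a trend and all 4 groups in 1 model, with Benjamini-Hochberg adjustment. The model holds 1 variance per gene for all groups. The 2 control libraries differed from each other by a median absolute log2 difference of 0.257. A library of the other groups differed from the rest of its group by 0.112 to 0.151. SEs and p-values against control may therefore be too small, which was not tested. Both steps were tested on simulated data. Depth was 32094187 to 49339757 reads a library. The p-values rest on 2 or 3 cultures a group of 1 experiment.

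The members, gene lists and motifs were chosen with earlier results of these data known. Named members are those past 2-fold, the 8 of highest level and a list of 22 symbols. Trim8, Trim59 and Trim35 fall under the level rule, and Trim16, Trim2, Trim46, Trim65 and Trim69 under the fold rule. Trim54 and Trim66 and the genes of the lists were named after their values were seen. All 67 names matched RefSeq symbols. Trim5 and Trim30c were not analysed here, and 1 gene of the interferon signalling list is not reported here. Gene spans are the table's, in mm9.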

Additional observations from a re-analysis of the deposited data

How the results depend on the processing

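The recovered libraries are a reconstruction from group means and were chosen after seeing the data, as were leaving out a library and the test on adjusted p alone. No paired analysis was possible because the table holds group means and a recovered library carries no replicate number. By group means, with 1 FPKM added in place of 0.1, members past 2-fold higher were 1 with 4HC and 0 with 4HC and the antibody, those lower were 0 with 4HC and the antibody, 1 in the antibody group against 4HC and 1 with IFNβ, and the 4HC median was 0.22. At a fold of 1.5 they were 14 higher and 1 lower with 4HC, 9 higher with the antibody against control and 7 lower against 4HC. A 1 FPKM limit left 1 lower with IFNβ. With no limit on FPKM, the median was 0.21 with 4HC and 0.12 with IFNβ. On recovered libraries, 1 FPKM added gave 1 higher with 4HC, 0 higher and 0 lower with the antibody against control, 1 lower against 4HC and 1 lower with IFNβ, and a 1 FPKM limit gave 1 lower with IFNβ. Adjusted p alone gave 15 higher and 3 lower with 4HC, 13 and 4 with the antibody against control, 7 lower against 4HC and 5 lower with IFNβ, and a fold of 1.5 gave 13 higher and 1 lower, 9 higher, and 7 lower in the first 3 of these. Median centring gave 1 lower with 4HC (Trim46). Leaving out each library gave 7 to 8 higher and 0 to 1 lower with 4HC, 4 to 6 higher and 1 lower with the antibody against control, 0 higher and 2 to 3 lower against 4HC, and 11 to 12 higher and 2 lower with IFNβ. The cause of these changes was not tested. Of 62 member results past the test, 879 of 929 alternatives kept the direction and an adjusted p below 0.05, 50 kept the direction only and 0 reversed. This count disregards the 2-fold limit. Leaving out a library of a group outside the comparison, or changing the FPKM limit, leaves the log2 difference as it was. Those alternatives could not reverse a result. Low members are limited by depth, as in Trim54 with 0 reads in control.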

Other observations

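Pml, the scaffold protein of PML nuclear bodies, is a TRIM protein (TRIM19) listed under another name and so lay outside the name rule. It averaged 6.28 FPKM in the antibody group, 9.07 FPKM with 4HC, 20.3 FPKM with IFNβ and 4.08 FPKM in control. It rose with 4HC (log2 difference 1.13, limma adjusted p = 2.37e-05), with IFNβ (2.29, limma adjusted p = 2.21e-07) and in the antibody group against control (0.61, limma adjusted p = 0.00147). Against 4HC alone the antibody group differed by -0.52 (limma adjusted p = 0.0619). Mid2, a microtubule-binding TRIM protein, averaged 1.17 FPKM with IFNβ and 1.97 FPKM in control and fell (log2 difference -0.72, limma adjusted p = 0.0134), and Mid1 passed in no comparison. Triml1 and Triml2 were listed at 0 in every group, and Mefv, the pyrin gene, was at most 0.124 FPKM.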
